A study of Mus musculus with 6 samples.

Results

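DNA replication genes encode the proteins that license origins, unwind and copy DNA, supply deoxynucleotides and repackage the new strands. All 45 genes of a list drawn up for these roles were found by symbol among the 55573 genes of the count table, 1 row each, and all 45 had enough reads to be tested. Levels came from bulk RNA sequencing of LSK cells, a lineage-negative, Sca-1-positive and c-Kit-positive bone marrow fraction that holds stem cells and multipotent progenitors. The 6 libraries came from C57BL/6J mice aged 3 months. Of these, 3 were wild type (Etv6+/+) and 3 carried 1 copy of the allele that the series text writes as R355X and the genotype label as Etv6+/-, in the gene for a transcriptional repressor of the ETS family. No Cre driver, transgene or treatment is named in the labels, which also do not say whether libraries came from separate animals or pools. Any p-value below therefore weighs a genotype difference only against the spread among these libraries, and that spread may be technical.

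At each origin the origin recognition complex, Cdc6 and Cdt1 load the MCM helicase in G1, and geminin (Gmnn) blocks reloading later. Cdc45 and the GINS proteins then activate the helicase, and primase, polymerases, the PCNA clamp and its RFC loader copy the strands. Many of these genes are transcribed together at the G1/S border through E2F factors, whose activity rises once cyclin E and other G1 cyclins have acted on the retinoblastoma proteins. Most long-term stem cells rest outside the cycle, whereas multipotent progenitors divide often, and an LSK sort holds both. In bulk RNA, fewer cycling cells and less RNA per cell cannot be told apart.

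Promoter sequence is shown because E2F binding sites near the start are the best known shared feature of these genes. RefSeq promoters (build GRCm38.p6) were matched for 36 of the 45 genes. The 8-base E2F consensus was searched as TTTCCCGC, TTTCGCGC, TTTGCCGC and TTTGGCGC on both strands in the 250 bases before each start. The 3 genes with a match and the 2 without one that had the smallest p between genotypes are printed 5′ to 3′ over the last 150 bases before the start, with matches in capitals. For E2f2, which has 2 promoter entries, 1 is shown.
Gins3 (chr8:95633409-95633558, + strand): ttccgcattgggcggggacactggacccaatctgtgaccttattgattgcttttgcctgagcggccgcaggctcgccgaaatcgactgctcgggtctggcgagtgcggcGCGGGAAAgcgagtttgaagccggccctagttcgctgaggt
Cdc6 (chr11:98908001-98908150, + strand): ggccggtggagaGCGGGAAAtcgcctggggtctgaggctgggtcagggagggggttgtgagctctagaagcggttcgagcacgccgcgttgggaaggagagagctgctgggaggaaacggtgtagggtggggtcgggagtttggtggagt
Rfc3 (chr5:151651209-151651358, - strand): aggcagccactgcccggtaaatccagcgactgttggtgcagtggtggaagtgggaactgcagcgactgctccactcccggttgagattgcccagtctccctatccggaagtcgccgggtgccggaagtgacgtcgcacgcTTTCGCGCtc
E2f2 (chr4:136172124-136172273, + strand): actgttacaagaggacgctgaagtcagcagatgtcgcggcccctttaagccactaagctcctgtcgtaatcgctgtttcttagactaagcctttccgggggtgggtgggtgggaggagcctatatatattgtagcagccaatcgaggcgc
Pcna (chr2:132253181-132253330, - strand): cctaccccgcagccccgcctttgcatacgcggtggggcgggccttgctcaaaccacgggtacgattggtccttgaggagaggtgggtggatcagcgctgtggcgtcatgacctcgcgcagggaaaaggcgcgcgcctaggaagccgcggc

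A match was present before the start in 9 of 36 genes (25.0%), namely Orc1, Cdc6, Mcm5, Mcm6, Mcm7, Gins3, Rfc3, Pola1 and Uhrf1. The same letters were found for 3.68% of the 11688 tested genes with a promoter entry and 2.16% of all 27025 genes of the promoter table. Counted from the transcription start, the match begins at base -41 in Gins3, at base -138 in Cdc6 and at base -10 in Rfc3. Mcm5 and Mcm6 hold matches on both strands that overlap each other. With the first 50 transcribed bases included, 14 of 36 genes (38.9%) held a match against 4.42% of tested genes. E2f2 was then among them, with a match that starts at transcribed base 40, in a window next to the sequence printed. CCAAT or ATTGG, the letters bound by NF-Y, occurred before the start in 23 of 36 (63.9%) against 4680 of the 11688 tested genes. TTTGAA or TTCAAA, the CHR element of mitotic promoters, occurred in 5 of 36 (13.9%) against 13.8%. A match is a description of the letters only.

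Levels between genes were compared as CPM (a gene's count over the TMM-scaled library size) divided by the exon length in kb, given as mean ± SD over the 6 libraries. Pcna, the sliding clamp, was highest at 126 ± 14.04 CPM per kb. The helicase subunits Mcm6 (68.7 ± 2.54), Mcm3 (50.1 ± 2.19), Mcm4 (42.7 ± 1.63) and Mcm7 (35.97 ± 1.15) and the small ribonucleotide reductase subunit Rrm2 (38.7 ± 6.41) followed. By level Rrm2 stood between Mcm4 and Mcm7. Its SD range met that of each, so Rrm2 did not differ from either beyond its spread. The lowest were the cyclin gene Ccne1 (2.11 ± 0.404), the origin recognition subunit Orc1 (4.34 ± 0.344) and Gins3 (4.501 ± 0.438). Subunits of one complex differed in level per length. Within the MCM ring, Mcm6 was highest and Mcm2 lowest (16.3 ± 1.18), and within GINS, Gins2 was highest (25.04 ± 1.64) and Gins3 lowest. Exon length here is the union over annotated transcripts, so it overstates the length of genes with long unused exons. The place of Mcm2 rests on a length of 6.956 kb, against 3.993 kb for Mcm5. Before division by length, Mcm2 (112 and 115 CPM, wild-type and mutant means) lay above Mcm5 (97.8 and 94.0 CPM).

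**Figure D1:**
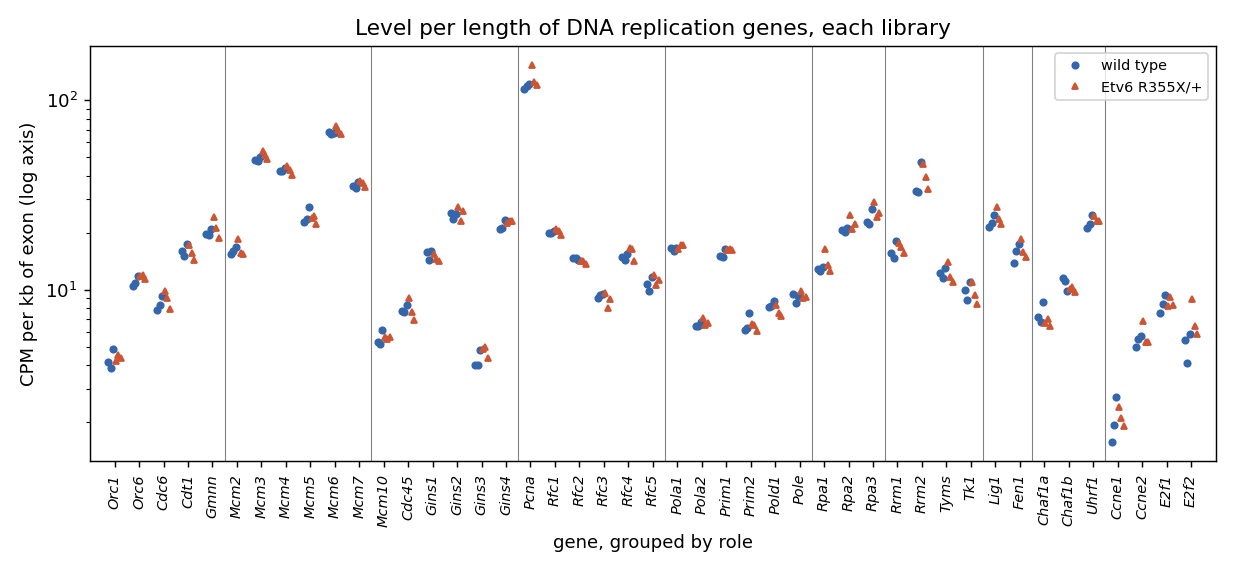
CPM per kb of exon on a log axis for the 45 DNA replication genes, 1 point per library (blue circles wild type, red triangles Etv6 R355X/+), with vertical lines between roles. Pcna stands highest at 126 ± 14.04 and Ccne1 lowest at 2.11 ± 0.404, and the 6 libraries of a gene lie close together beside the differences between genes.

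The libraries held 45.2 M to 92.2 M expected counts, mutant replicate 1 the most, and nuclear ribosomal RNA took 6.30% to 8.61%, most in the same library. Etv6 itself measured 454, 419 and 400.1 CPM across the wild-type libraries, against 305, 341 and 386 CPM across the mutant ones (log2 fold change -0.30, SE 0.0862, adjusted p = 0.245 in edgeR's quasi-likelihood test), and all mutant libraries lay below all wild-type libraries without passing the threshold. The transcript carrying R355X may still be counted, so this level checks the labels only in part. Sorting markers were present in all libraries, with Kit at 351 to 451 CPM and Ly6a, which encodes Sca-1, at 71.7 to 93.5 CPM. Markers of other lineages were also read, and none of the 44 such genes was at 0 in any library.

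Wild-type replicate 3 and mutant replicate 1 stood apart from the other 4 libraries in the replication genes. Among the 45 genes, the median log2 deviation from a gene's own mean was -0.060, -0.071 and 0.068 across the wild-type libraries, against 0.10, -0.0015 and -0.061 across the mutant ones. Wild-type replicate 3 was above both other wild-type libraries in 39 of 45 genes (86.7%, against 36.9% of all 20646 tested genes). Mutant replicate 1 was above both other mutant libraries in 34 of 45 (75.6%, against 38.5%). In 22 of 45 genes (48.9%, against 9.77%) these libraries were the 2 highest of all 6.

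**Figure D2:**
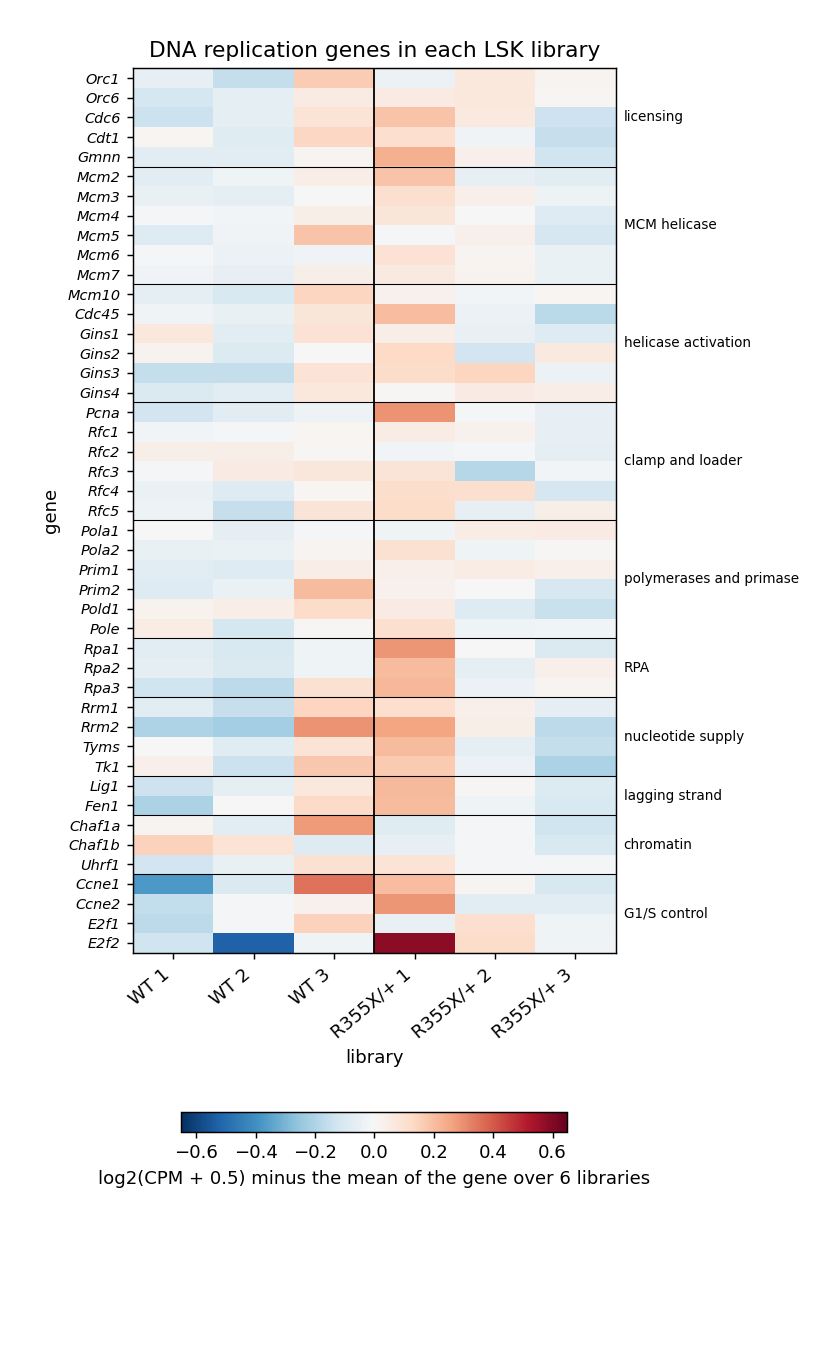
Each row is a replication gene and each column a library, with wild type left of the line and Etv6 R355X/+ right of it, and colour gives log2(CPM + 0.5) minus the gene's mean over the 6 libraries. Red is concentrated in wild-type replicate 3 and mutant replicate 1, where 37 and 38 of the 45 genes lay above their own mean, against 10, 5, 21 and 11 in wild-type replicates 1 and 2 and mutant replicates 2 and 3.

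The step between libraries varied among the roles. Nucleotide supply genes had a median of 0.24 on the log2 scale for wild-type replicate 3 over the mean of the other wild-type libraries, and 0.31 for mutant replicate 1 over the other mutant libraries. For the MCM helicase these medians were 0.066 and 0.11, and for polymerases and primase 0.074 and 0.096. The RPA subunits differed among themselves: the steps in wild-type replicate 3 and mutant replicate 1 were 0.055 and 0.33 for Rpa1, 0.052 and 0.21 for Rpa2 and 0.25 and 0.22 for Rpa3. The chromatin genes did too, with 0.30 and -0.0070 for Chaf1a, 0.19 and 0.098 for Uhrf1 and -0.20 and -0.0021 for Chaf1b, which was lower in wild-type replicate 3 than in the other wild-type libraries. Over all tested genes the medians were 0.0022 and 0.011. These libraries were picked after their values were seen, and the steps are given without a test.

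The same libraries were highest in genes of mitosis. All 20 genes of a mitosis list were above both other libraries of the genotype in wild-type replicate 3, and all 20 in mutant replicate 1. Their median log2 deviation was -0.12, -0.17 and 0.27 across the wild-type libraries, against 0.11, -0.041 and -0.027 across the mutant ones. By this median, wild-type replicate 3 led in mitosis genes. In the 45 replication genes, mutant replicate 1 had the higher median deviation (0.10 against 0.068). Wild-type replicate 3 was nonetheless above both others of its genotype in 39 of the 45, and mutant replicate 1 in 34. In the 58 other replication genes described below, the median log2 deviation was 0.078 in wild-type replicate 3 and 0.022 in mutant replicate 1. Which of these libraries led thus depended on the measure and the list, and was not tested. The summed level of 6 LSK markers was 1534, 1488 and 1228 CPM across the wild-type libraries, against 1237, 1295 and 1372 CPM across the mutant ones, lowest in those libraries. The summed level of 8 erythroid markers was at most 206 CPM in wild-type replicates 1 and 2 and 366 CPM in replicate 3, against 398, 359 and 235 CPM across the mutant libraries. For 8 granulocyte and monocyte markers the sum was 4984, 4924 and 7801 CPM across the wild-type libraries, against 5184, 5244 and 3899 CPM across the mutant ones. Their part in the pattern of the replication genes was not tested.

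**Figure D3:**
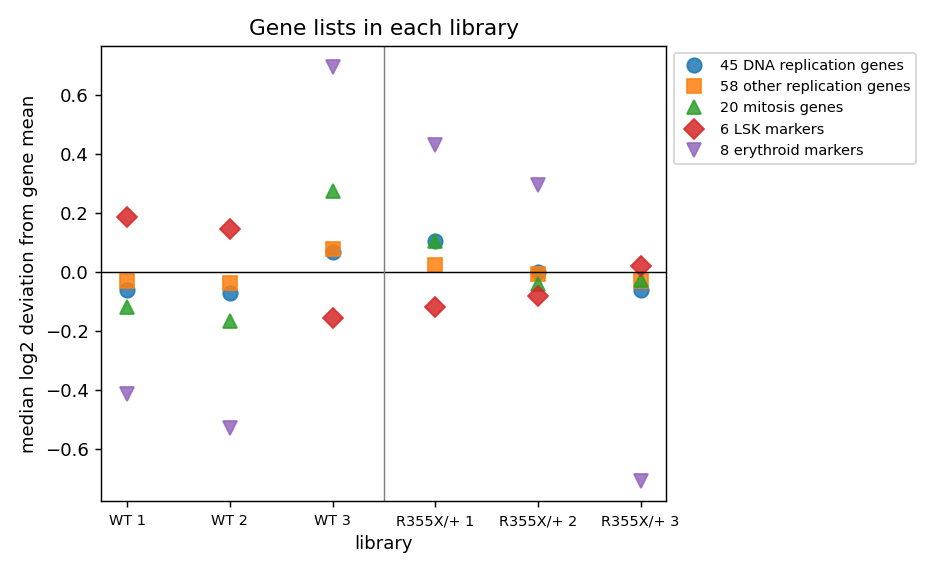
Median log2 deviation from each gene's mean over 6 libraries, for 45 replication genes, 58 other replication genes, 20 mitosis genes, 6 LSK markers and 8 erythroid markers, in each library. Replication and mitosis genes are highest and LSK markers lowest in wild-type replicate 3 and mutant replicate 1, 1 library of each genotype.

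Between genotypes, none of the 45 replication genes changed past the threshold. The quasi-likelihood test of edgeR was fitted to 20646 genes, with Benjamini-Hochberg adjusted p-values and a threshold of 0.05, and it called 0.266% of all genes. In the same test 1 of 45, E2f2, had an unadjusted p under 0.05, higher in the mutant, against 10.6% of all genes (5.83% higher and 4.8% lower), and DESeq2 and limma-voom called 0 members too. The smallest adjusted p was 0.359, for E2f2. The median log2 fold change, mutant over wild type, was 0.049 for the 45 genes and 0.0019 for all genes, and 34 of 45 were above 0 and 11 below, against 50.6% and 49.4% of all genes. Without mutant replicate 1 the count above 0 was 23 of 45, with a median of 0.00092. Without wild-type replicate 3 it was 39 with a median of 0.090, and without both it was 33 with a median of 0.037. Leaving out wild-type replicate 1 or 2 gave 26 and 27 above 0, with medians of 0.019 and 0.016. Leaving out mutant replicate 2 or 3 gave 32 and 37, with medians of 0.059 and 0.068. Scaling by library size alone gave 27 above 0 and a median of 0.012, with all genes at -0.034.

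For 24 of 45 genes (53.3%) the 95% interval of the fold change lay within 1.2-fold in either direction, and for 44 (97.8%) within 1.5-fold, the exception being E2f2. Among all tested genes, 18.8% and 54.2% lay within these limits. These shares were not matched for level, as the tested genes include many under 10 CPM. The median SE was 0.0849 for the 45 genes and 0.163 for all tested genes. The median coefficient of variation among replicates was 6.14% in wild type and 6.17% in the mutant, against 6.19% and 6.65% in the 9541 tested genes with a mean of at least 10 CPM.

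**Figure D4:**
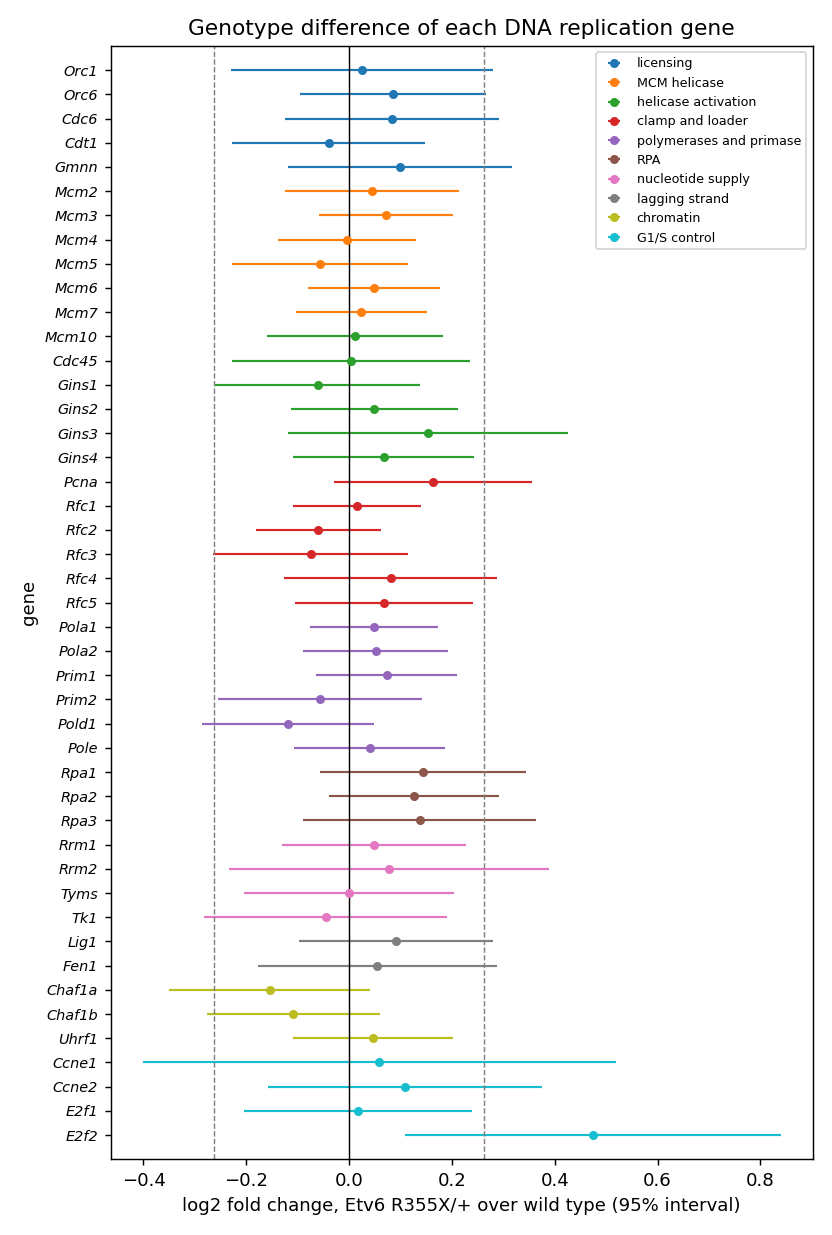
Log2 fold change of each replication gene, Etv6 R355X/+ over wild type, with its 95% interval from the quasi-likelihood fit, coloured by role. Dashed lines mark 1.2-fold. Intervals cross 0 for 44 of the 45 genes, and that of E2f2 runs from 0.11 to 0.84.

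Licensing genes were within the spread between libraries. Orc6, the smallest origin recognition subunit, measured 25.9, 26.9 and 29.1 CPM across the wild-type libraries, against 29.2, 29.4 and 28.2 CPM across the mutant ones (log2 fold change 0.085, SE 0.0816, adjusted p = 0.762). Gmnn, the inhibitor of Cdt1, measured 28.7, 28.6 and 30.5 CPM across the wild-type libraries, against 35.5, 30.9 and 27.6 CPM across the mutant ones (interval of the log2 fold change -0.12 to 0.32). The genotypes overlapped in both genes. Orc1, Cdc6, which recruits the helicase, and Cdt1, which delivers it, had log2 fold changes of 0.024, 0.083 and -0.040.

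The MCM helicase genes were the most even group between libraries, with a median ratio of highest to lowest library of 1.12. Mcm6 measured 319, 312 and 315 CPM across the wild-type libraries, against 342, 324 and 311 CPM across the mutant ones. Mcm3 measured 182, 180.2 and 188 CPM across the wild-type libraries, against 202, 192 and 183 CPM across the mutant ones (log2 fold change 0.072, SE 0.0588, adjusted p = 0.717). In both, mutant replicate 1 was highest and the other mutant libraries lay within or near the wild-type range. All 6 subunits had log2 fold changes between -0.057 (Mcm5) and 0.072 (Mcm3), and the interval bound farthest from 0 in the ring was -0.23, for Mcm5.

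Genes that activate the helicase were within the spread too. Gins3 measured 10.8, 10.9 and 12.95 CPM across the wild-type libraries, against 13.3, 13.4 and 11.8 CPM across the mutant ones (interval of the log2 fold change -0.12 to 0.43). Gins4 stood at 28.2, 28.6 and 31.6 CPM across the wild-type libraries, against 30.3, 31.3 and 31.1 CPM across the mutant ones. Gins2 stood at 104, 96.4 and 102 CPM across the wild-type libraries, against 112, 93.9 and 107 CPM across the mutant ones. Their genotypes overlapped. Gins1, Cdc45 and Mcm10, which is needed for origin firing, had log2 fold changes of -0.061, 0.0041 and 0.011.

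The clamp gene Pcna measured 276, 286 and 294 CPM across the wild-type libraries, against 369, 299.8 and 289.7 CPM across the mutant ones (log2 fold change 0.16, SE 0.0871, adjusted p = 0.551). One mutant library, replicate 1, was far above the rest, and the difference was 0.047 on the log2 scale without it. Rfc2, a clamp loader subunit, measured 92.8, 92.9 and 90.9 CPM across the wild-type libraries, against 89.2, 89.7 and 86.6 CPM across the mutant ones, so that all mutant libraries lay below all wild-type libraries by a small step (log2 fold change -0.060, SE 0.05504, adjusted p = 0.751). It was 1 of 45 members with that order, and 7.84% of all tested genes had it. Rfc1, Rfc3, Rfc4 and Rfc5 had log2 fold changes from -0.075 (Rfc3) to 0.081 (Rfc4).

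Pold1, the catalytic subunit of lagging-strand polymerase delta, measured 39.5, 40.1 and 42.3 CPM across the wild-type libraries, against 40.3, 36.7 and 35.1 CPM across the mutant ones (log2 fold change -0.12, SE 0.0758, adjusted p = 0.634). Prim1, the catalytic primase subunit, measured 58.5, 57.7 and 63.2 CPM across the wild-type libraries, against 62.7, 63.3 and 62.7 CPM across the mutant ones. Pola1, the catalytic subunit of polymerase alpha, stood at 146, 141 and 146 CPM across the wild-type libraries, against 144, 152 and 153 CPM across the mutant ones. Mutant values were even in Prim1 and the wild-type values spread below and beside them, and the genotypes overlapped in all 3 genes. Pola2, Prim2 and Pole had log2 fold changes of 0.052, -0.056 and 0.040.

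The 3 subunits of RPA, which coats single-stranded DNA, had log2 fold changes of 0.14, 0.13 and 0.14, none past the threshold (adjusted p = 0.6004 to 0.688). Rpa1 measured 71.4, 69.9 and 73.4 CPM across the wild-type libraries, against 91.6, 75.2 and 70.3 CPM across the mutant ones. Rpa2 measured 62.1, 60.6 and 63.6 CPM across the wild-type libraries, against 74.6, 62.2 and 66.4 CPM across the mutant ones. Rpa3 stood at 25.9, 25.1 and 30.3 CPM across the wild-type libraries, against 33.01, 27.6 and 28.7 CPM across the mutant ones. In each gene mutant replicate 1 was highest of all 6, and the genotypes overlapped.

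Nucleotide supply genes had a median coefficient of variation of 10.8% in wild type and 13.4% in the mutant. For all 45 genes it was 6.14% and 6.17%, and for Ccne1, Ccne2, E2f1 and E2f2 14.4% and 13.4%. Tyms in wild type (5.86%) and Rrm1 in the mutant (5.90%) were below the medians of all 45. Rrm2, the ribonucleotide reductase subunit whose level follows S phase, measured 92.3, 90.9 and 130.1 CPM across the wild-type libraries, against 127, 109 and 94.4 CPM across the mutant ones (log2 fold change 0.078, SE 0.141, adjusted p = 0.892). Its partner Rrm1 measured 171, 162 and 198 CPM across the wild-type libraries, against 194, 184 and 172 CPM across the mutant ones. In both, wild-type replicate 3 and mutant replicate 1 were the 2 highest libraries, and the coefficient of variation in wild type was 21.3% for Rrm2 and 10.7% for Rrm1. Tyms, which makes thymidylate, and the thymidine kinase gene Tk1 had log2 fold changes of 0.00033 and -0.046.

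Lig1, the ligase that joins Okazaki fragments, measured 91.5, 96.4 and 106 CPM across the wild-type libraries, against 117, 101 and 94.5 CPM across the mutant ones (log2 fold change 0.091, SE 0.0851, adjusted p = 0.757). Fen1, the flap nuclease that trims them, measured 33.6, 38.9 and 42.4 CPM across the wild-type libraries, against 44.9, 38.1 and 36.2 CPM across the mutant ones. Both genes overlapped between genotypes with mutant replicate 1 highest.

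Chaf1a and Chaf1b encode subunits of the histone chaperone CAF-1, and Chaf1a had the most negative log2 fold change of the list, without passing. Chaf1a measured 63.5, 59.7 and 76.04 CPM across the wild-type libraries, against 59.4, 62.3 and 57.3 CPM across the mutant ones (log2 fold change -0.15, SE 0.0886, adjusted p = 0.5902). Chaf1b stood at 54.2, 51.9 and 45.996 CPM across the wild-type libraries, against 46.98, 48.6 and 45.6 CPM across the mutant ones (adjusted p = 0.662). Wild-type replicate 3 was highest in Chaf1a and lowest of the wild-type libraries in Chaf1b. Uhrf1, which guides maintenance of DNA methylation, measured 89.95, 95.1 and 105 CPM across the wild-type libraries, against 105, 97.6 and 97.7 CPM across the mutant ones.

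E2f2 (chr4:136172394-136196057 on GRCm38, + strand), an activator of the E2F family, had the largest log2 fold change of the 45 genes. It measured 26.5, 20.05 and 28.4 CPM across the wild-type libraries, against 43.8, 31.6 and 28.6 CPM across the mutant ones, 25.005 ± 4.401 and 34.7 ± 8.02 CPM (mean ± SD, n = 3). All mutant libraries lay above all wild-type libraries, by 28.6 against 28.4 CPM where they came closest, an order that 8.45% of all tested genes had. The fold change was 1.39 (log2 fold change 0.47, SE 0.165, adjusted p = 0.359, unadjusted p = 0.0159) in edgeR's quasi-likelihood test. Without mutant replicate 1 the log2 fold change was 0.27 (unadjusted p = 0.0837), and without it and wild-type replicate 3 together 0.37 (unadjusted p = 0.0208). DESeq2 gave an adjusted p of 0.0995, and a fit with no filter on low counts called the gene (adjusted p = 0.00975). Over the 18 alternatives its log2 fold change was between 0.27 and 0.59 and its adjusted p between 0.00975 and 1.0. The upper end came from the test against a fold of 1.2, which asks a different question from the others.

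The family member E2f1 measured 23.7, 26.6 and 29.7 CPM across the wild-type libraries, against 25.8, 28.9 and 26.2 CPM across the mutant ones. Ccne2, encoding cyclin E2, stood at 17.4, 19.3 and 19.8 CPM across the wild-type libraries, against 23.8, 18.5 and 18.4 CPM across the mutant ones. Neither separated the genotypes (adjusted p = 0.973 and 0.801). Ccne1, at 5.501 ± 1.55 and 5.71 ± 0.669 CPM by genotype (wild type first, n = 3), had the widest interval of the list, -0.40 to 0.52. No other member, E2f1 included, had all mutant libraries above all wild-type libraries.

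**Figure D5:**
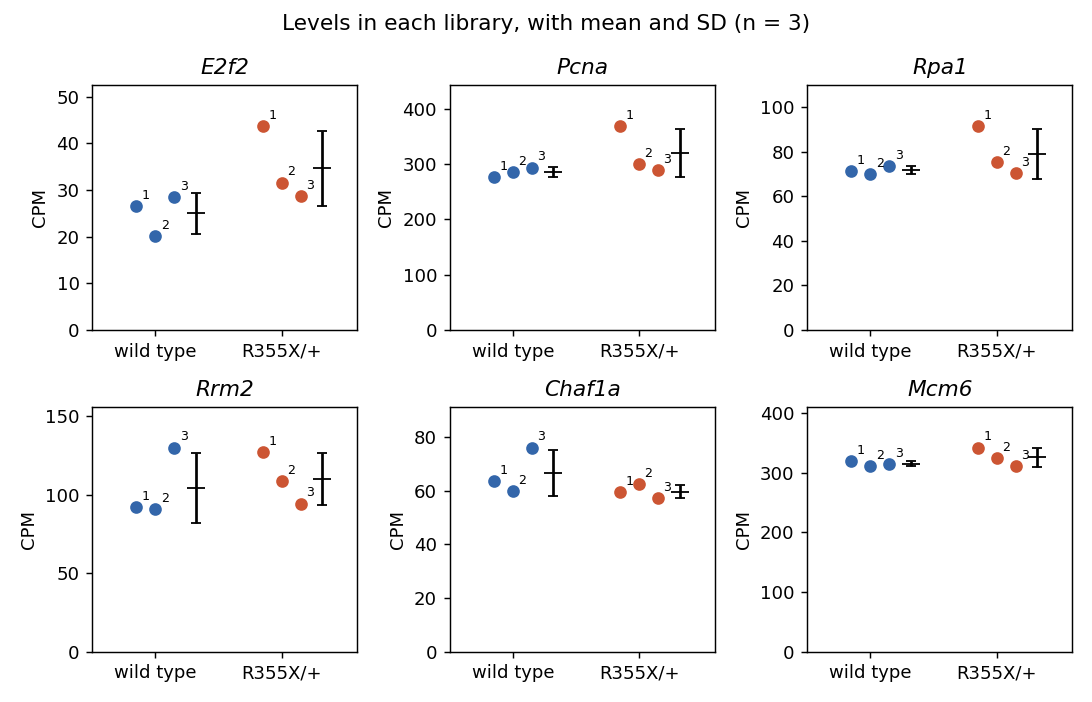
CPM of 6 replication genes in each library (numbers are replicates), with mean and SD beside them (n = 3) on axes that start at 0. E2f2 is the 1 gene of the 6 whose genotypes do not overlap, and mutant replicate 1 is the highest mutant library in E2f2, Pcna, Rpa1, Rrm2 and Mcm6.

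Markers of several other cell types were higher in the mutant beside E2f2. The summed level of 7 B cell genes (Cd79a, Cd79b, Vpreb1, Vpreb3, Igll1, Ebf1 and Pax5) was 114, 99.1 and 129 CPM across the wild-type libraries, against 321, 201 and 141 CPM across the mutant ones, which puts the 6 libraries in the same order as E2f2. All 7 had an unadjusted p under 0.05, higher in the mutant, and 0 of 7 passed the adjusted threshold in edgeR's quasi-likelihood test. For 4 mast cell and basophil genes (Cpa3, Fcer1a, Mcpt8 and Prss34) the sum was 29.8, 27.7 and 28.8 CPM across the wild-type libraries, against 52.5, 40.4 and 35.001 CPM across the mutant ones. All 4 had an unadjusted p under 0.05, higher in the mutant, and 1 of 4, Fcer1a, passed the adjusted threshold of edgeR (adjusted p = 0.00522). For 6 macrophage and dendritic cell genes the sum was 42.6, 35.6 and 40.2 CPM across the wild-type libraries, against 60.4, 47.04 and 47.1 CPM across the mutant ones. Of these 6, 5 were higher and 1 lower at an unadjusted p under 0.05, and 0 passed in edgeR's test. In that test 5.83% of all genes were higher and 4.8% lower at an unadjusted p under 0.05, and 0.266% passed. The genotypes did not overlap in any of these 3 sums, and mutant replicate 1 was highest in each. Of single genes tested, 8.45% had all mutant libraries above all wild-type libraries. Among 8 erythroid markers 2 passed, the globin genes Hbb-bs and Hbb-bt, both higher in the mutant. Of all 8, 4 had a log2 fold change above 0 and 4 below, with a median of -0.072. Among 7 T and NK cell markers 1 passed, Klrb1c, also higher in the mutant. Of those 7, 4 were above 0 and 3 below, and Cd4 was at -1.17 (adjusted p = 0.132 in edgeR's test). The shared order of E2f2 and the B cell sum was noticed after the values were seen, and the part of any of these cell types in the E2f2 difference was not tested.

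Another 59 replication genes were listed for their roles in origin firing, fork progression, nucleotide metabolism and E2F control, and 58 were tested. In edgeR's quasi-likelihood test 0 passed and 1 had an unadjusted p under 0.05, against 0.266% and 10.6% of all genes. The median log2 fold change of the 58 was -0.013, with 24 above 0 and 34 below. All mutant libraries lay above all wild-type libraries in 1 of the 58 and below them in 4, against 8.45% and 7.84% of all genes. Pold4, the smallest subunit of polymerase delta, measured 13.1, 14.9 and 12.8 CPM across the wild-type libraries, against 16.9, 15.5 and 16.95 CPM across the mutant ones, above wild type in all 3 mutant libraries (log2 fold change 0.27, SE 0.108, adjusted p = 0.416). Shmt1, which feeds one-carbon units to thymidylate synthesis, measured 45.3, 48.9 and 46.6 CPM across the wild-type libraries, against 41.05, 40.1 and 45.03 CPM across the mutant ones, below wild type in all 3 (log2 fold change -0.16, SE 0.0719, adjusted p = 0.471). Clspn, a checkpoint adaptor at the fork, and the salvage kinase gene Dck had log2 fold changes of 0.19 and 0.20, with overlapping genotypes.

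The 20 mitosis genes had a median log2 fold change of -0.0041 and 0 passed or had an unadjusted p under 0.05 in edgeR's quasi-likelihood test. Ccnb2, a mitotic cyclin, had a log2 fold change of 0.21 and Cdc20, which triggers anaphase, of -0.18. Of 7 genes for inhibitors of G1 kinases, 5 were tested and 0 passed. In the same test 2 had an unadjusted p under 0.05, both higher in the mutant, against 5.83% of all genes. Cdkn1b, encoding p27, measured 45.8, 37.04 and 38.2 CPM across the wild-type libraries, against 44.98, 50.2 and 47.1 CPM across the mutant ones (log2 fold change 0.23, SE 0.0903, adjusted p = 0.413). The p53 target Cdkn1a stood at 17.4, 21.6 and 18.4 CPM across the wild-type libraries, against 32.3, 20.3 and 22.1 CPM across the mutant ones (log2 fold change 0.38, SE 0.165, adjusted p = 0.447). Both genes overlapped between genotypes.

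Counting without strand limits some of these values. The spans of 17 of the 45 genes overlap an annotated gene on the opposite strand, among them Rfc2 with Lat2, Chaf1a with Ubxn6 and Rfc4 with Eif4a2, and reads of such partners cannot be told apart where exons meet. E2f2, Pcna, Rrm2 and Rpa2 overlap no annotated gene.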

How the data were processed

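The authors deposited 1 table of RSEM expected counts per gene, 1 column per library, not scaled for depth and counted without strand. Per the submitters' processing notes the tools were Trim Galore 0.60, STAR 2.7 and RSEM 1.31 on build mm10. The annotation release is not given in the sources used here. Per the labels' protocols, RNA from sorted cells was amplified as cDNA by single-primer isothermal amplification, so low counts carry amplification noise that the replicates include.

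Expected counts were rounded, 92 spike-in entries at 0 were left out, and 20646 genes passed edgeR's filterByExpr. Genotypes were compared by edgeR 4.0.16 (R 4.3.3) with TMM scaling and the quasi-likelihood test, two-sided, with Benjamini-Hochberg adjustment over all genes. DESeq2 1.42.0, limma-voom (limma 3.58.1), other scalings and filters, a replicate block and leaving out each library were alternatives. Exon lengths came from GENCODE annotation on GRCm38. Chtf8, which has 2 entries, was not tested. The procedure was tested on simulated data.

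The members and the gene lists were chosen with earlier results of these data known. Library values are given for genes with an unadjusted p under 0.05 and, per role, for the 2 genes with the smallest p and the 1 with the highest level per length. From the other replication list 4 genes, and from the mitosis and G1 inhibitor lists 2 each, are named by smallest p. The limits of 1.2-fold and 1.5-fold used to describe intervals, and the genes plotted singly, were chosen after the values were seen. A further gene of the B cell marker list is not reported here, and the list's values leave it out.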

Additional observations from a re-analysis of the deposited data

How the results depend on the processing

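None of the 45 replication genes passed under the main settings or 17 of the 18 alternatives. With no filter on low counts 1 passed, E2f2, while 527 genes passed in all. The count over all genes, 55 in the main analysis, was 329 with DESeq2, 23 against a fold of 1.2 and 32 with the replicate block, of which 26 were shared. Leaving out 1 library at a time gave 16 to 67 genes, 0 replication genes and a median log2 fold change of the replication genes from 0.00092 (without mutant replicate 1) to 0.090 (without wild-type replicate 3). With both of these libraries left out, a setting chosen after seeing the data, 56 genes passed and the median was 0.037. The sign of the log2 fold change was kept under all 18 alternatives by 23 members and not by the other 22.

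Same-numbered libraries did not deviate together over all tested genes (correlations of deviations -0.020, -0.025 and -0.085). The labels do not say whether the numbers pair the samples, and correlations from 3 libraries a genotype cannot settle it. With the replicate block the median of the replication genes was 0.049 and 0 of them passed. With 3 libraries a genotype, intervals of the size given limit what could be detected, and Ccne1, the gene at the lowest level per length, had the widest.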
